A study of Mus musculus with 2 samples.

Results

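Zfc3h1 and 9 other genes of nuclear RNA decay were followed in RAW264.7, an established mouse line of leukaemic monocytes and macrophages. They were picked by symbol from 56791 genes in the deposited count table, and all 10 were found: Zfc3h1, Mtrex, Zcchc8, Rbm7, Pabpn1, Dis3, Exosc2, Exosc3, Exosc5 and Exosc10. The choice was made with the difference of Zfc3h1 between these libraries already known, so its values and those of the genes beside it are a description and carry no test. The wild-type cells were grown in 2 conditions, with 1 library each. As the labels are read here, the medium of each culture contained 20 ng of mouse recombinant IL-4, a cytokine that drives M2 polarization, for 24 h. One of them, named here the treated library, also received 10000000 particles of a preparation labelled FAPD10-exos over the same 24 h. The other, named the vehicle library, did not. The study asked what this preparation does to M2 polarization. The labels do not explain the name FAPD10, and no culture with vehicle but without IL-4 was analysed here.

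The RNA exosome is a barrel of subunits with attached nucleases that degrades or trims RNA from its 3′ end. In the nucleus it depends on the RNA helicase MTR4, encoded by Mtrex, and on adaptors that bring RNA to it. ZFC3H1 and the nuclear poly(A)-binding protein PABPN1 form, with MTR4, the poly(A) tail exosome targeting (PAXT) connection, which directs polyadenylated nuclear transcripts to decay. ZCCHC8 and the RNA-binding protein RBM7 form, with MTR4, the nuclear exosome targeting (NEXT) complex, which acts on short transcripts without a poly(A) tail. Through these routes cells remove promoter upstream transcripts, enhancer RNAs and incompletely processed mRNAs.

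The promoters shown first are those of the members past the 1.5-fold threshold used below: Zfc3h1 and Mtrex, which were lower in the treated library, and Exosc3, which was higher. The sequences are from RefSeq on GRCm38.p6 and run 5′ to 3′ on the strand of the gene, from 250 bases before the transcript start to 50 after it. Capitals mark the core CCGGAAG bound by ETS-family transcription factors, or its reverse complement. The Zfc3h1 window is chr10:115384709-115385008 on the plus strand, the Mtrex window chr13:112927331-112927630 on the minus strand and the Exosc3 window chr4:45320567-45320866 on the minus strand.
Zfc3h1: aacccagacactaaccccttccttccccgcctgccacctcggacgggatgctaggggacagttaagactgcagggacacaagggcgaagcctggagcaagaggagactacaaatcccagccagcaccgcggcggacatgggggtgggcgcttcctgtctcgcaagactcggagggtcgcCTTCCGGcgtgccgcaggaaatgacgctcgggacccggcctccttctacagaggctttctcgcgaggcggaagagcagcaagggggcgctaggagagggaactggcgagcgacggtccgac
Mtrex: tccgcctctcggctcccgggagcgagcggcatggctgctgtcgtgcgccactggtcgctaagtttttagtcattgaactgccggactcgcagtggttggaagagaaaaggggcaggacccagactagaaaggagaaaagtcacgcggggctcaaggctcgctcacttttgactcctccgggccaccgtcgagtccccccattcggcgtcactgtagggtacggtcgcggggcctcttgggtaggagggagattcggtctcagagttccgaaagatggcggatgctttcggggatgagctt
Exosc3: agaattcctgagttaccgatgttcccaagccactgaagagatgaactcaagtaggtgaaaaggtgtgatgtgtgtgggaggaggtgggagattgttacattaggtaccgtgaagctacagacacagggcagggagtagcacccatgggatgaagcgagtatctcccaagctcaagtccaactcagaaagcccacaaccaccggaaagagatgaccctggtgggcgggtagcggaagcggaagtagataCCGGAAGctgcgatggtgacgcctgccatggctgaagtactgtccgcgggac
The ETS core, searched on both strands, was present once in the Zfc3h1 window, starting at position -71 from the transcript start, and once in the Exosc3 window, starting at -2. It was not found in the Mtrex window. The core was thus present in a lower and in a higher gene. Of 32851 promoter windows of this length in the table, 8.86% held it. Among the 10 members, all of which had a window, 4 genes had the core: Zfc3h1, Dis3, Exosc3 and Exosc10, the last in 1 of its windows. The TATA box TATAAA was present in 0 of the 11 member windows and in 13.6% of all windows. A site of the form that STAT6, the transcription factor activated by IL-4, binds (TTC and GAA with 4 bases between them) was present in 0 of the 11 and in 6.95% of all. The Zfc3h1 and Mtrex windows each held 25 CpG dinucleotides, against 12 in Exosc3 and a median of 7 over all windows. None of these letters is shown here to bind a factor.

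The treated library held 37196241 counts and the vehicle library 36152743. Levels below are counts per 1000000 counts (CPM) of the effective library size, and ratios are treated over vehicle. Ranges after a ratio are 95% counting intervals. They hold counting error alone and treat the counts as independent reads, whereas 76.3% and 75.1% of small counts in the treated and vehicle library were even, so both ends of a pair may have been counted and the intervals are then too narrow. With 1 library per group no difference has a replicate check, and all differences describe these libraries only. In bulk RNA, fewer cells expressing a gene and less RNA per cell cannot be told apart. The 10 macrophage markers were all measured, among them Lyz2 at 1013 CPM treated and 1110 CPM vehicle. Past 1.5-fold upwards were Adgre1, at a ratio of 2.91 from 247 against 90 counts, and Spi1 at 1.60. Downwards were Mpeg1 at 0.474 and Ptprc at 0.643. These are 2 and 2 of the 10, beside 17.1% and 19.8% of all measured genes. The 7 fibroblast markers together had 4 counts in each library, and Col1a1, Dcn and Lum were at 0 in both. Markers of muscle summed to 0 treated and 10 vehicle counts, those of endothelium to 26 and 12, and those of lymphoid cells to 2 and 0.

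Of the PAXT and NEXT adaptors, Zfc3h1 differed most. In the treated library Zfc3h1 had 1059 counts (29.8 CPM), and in the vehicle library 4806 (127 CPM). It was therefore 4.27-fold lower in the treated library (3.997 to 4.57), and 3.89 to 4.70 with counts halved. Genes were called measured from a mean of 1 CPM upwards. Of 12264 such genes 55 had a lower log2 ratio than Zfc3h1, and of 10081 measured protein-coding genes 17 did. After the correction for exon length given below, 145 and 22 did. Mtrex, the helicase gene shared by both adaptors, had 5548 counts (156 CPM) against 10170 (269 CPM) and was 1.73-fold lower (1.67 to 1.78). Pabpn1, which covers poly(A) tails in the nucleus, had 7026 counts (197 CPM) against 6592 (174 CPM), a ratio of 1.13 (1.09 to 1.17). Within PAXT the ZFC3H1 and helicase genes were thus lower in the treated library while the poly(A)-binding partner was not. The value of Pabpn1 is uncertain, since 21.5% of its exon length lies in exons of the overlapping gene Gm20521 and the counting rule for such reads is not given.

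The genes particular to NEXT were less far apart between the libraries. Zcchc8, the zinc-knuckle scaffold of the complex, had 2023 counts (56.9 CPM) against 2728 (72.2 CPM), a ratio of 0.788 (0.743 to 0.835). Rbm7, its RNA-binding subunit, had 1383 counts (38.9 CPM) against 1834 (48.5 CPM), a ratio of 0.801 (0.746 to 0.859). Both were lower in the treated library by less than 1.5-fold, so that of the 3 NEXT genes Mtrex alone passed the threshold. The log2 ratio of Zfc3h1 was 1.75 below that of Zcchc8, and the counting intervals of the pair did not overlap.

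**Figure D1:**
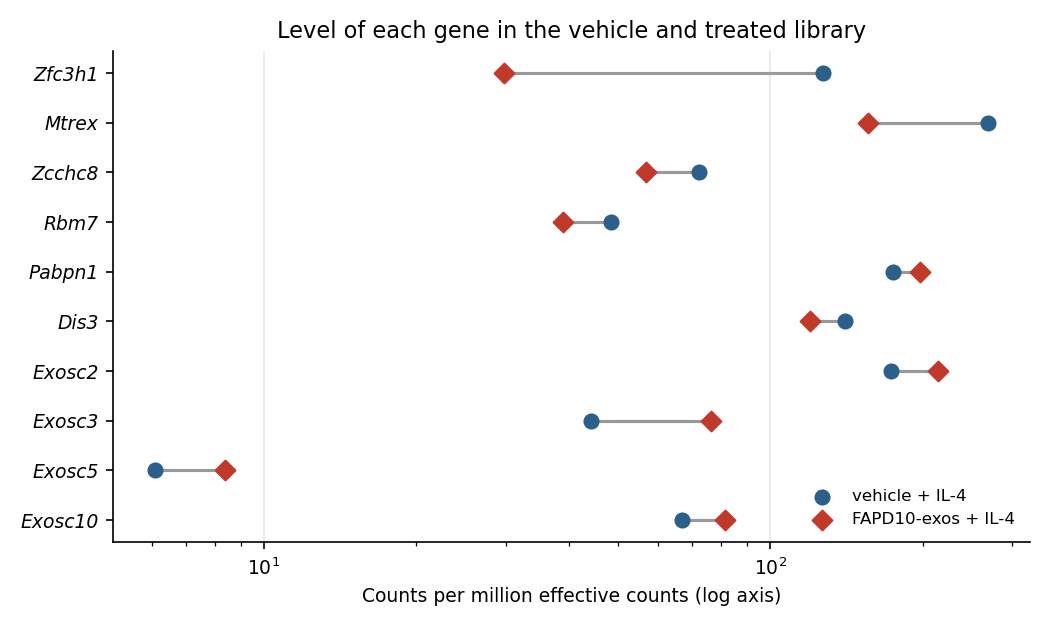
Level of the 10 genes in the vehicle (blue circles) and treated (red diamonds) library, in CPM on a log axis, 1 library each. The longest line is that of Zfc3h1, from 127 in the vehicle to 29.8 in the treated library. The shortest is that of Pabpn1, from 174 in the vehicle to 197 in the treated library.

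The catalytic subunits differed little. Dis3, the main exosome nuclease of the nucleoplasm, had 4254 counts (119.6 CPM) against 5306 (140.4 CPM), a ratio of 0.851 (0.818 to 0.887). Exosc10, the nuclear nuclease enriched in nucleoli, had 2889 counts (81.2 CPM) against 2523 (66.8 CPM), a ratio of 1.22 (1.15 to 1.28). The nucleases thus lay on opposite sides of 1, both within 1.5-fold.

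The barrel subunits were higher in the treated library. Exosc3, an RNA-binding cap subunit, had 2713 counts (76.2 CPM) against 1675 (44.3 CPM) and was 1.72-fold higher (1.62 to 1.83). Exosc2, a further cap subunit, had 7642 counts (215 CPM) against 6548 (173 CPM), a ratio of 1.24 (1.20 to 1.28). Exosc5, a ring subunit related to bacterial RNase PH, had 298 counts (8.37 CPM) against 230 (6.09 CPM), a ratio of 1.38 (1.15 to 1.64), and it was the least counted of the 10. Its interval with counts halved was 1.07 to 1.77. Among these members the cap subunit Exosc3 alone passed 1.5-fold.

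Over the 10 members, 1 was at least 1.5-fold higher with an interval above 1 (Exosc3), 2 were lower (Zfc3h1 and Mtrex) and 7 lay between. By the same rule 17.1% of the 12264 measured genes were higher (2097) and 19.8% were lower (2429). At 2-fold the shares were 4.19% and 8.64%, and Zfc3h1 was the only member past it. The members were chosen on this contrast, so nothing is read from these counts. The median log2 ratio of the 10 was -0.03, beside 0.01 over all measured genes. Called genes split as 46.3% higher under the scaling used here (trimmed mean of M-values, TMM) as 53.8% under upper-quartile scaling and as 32.3% under scaling by total counts, which moved the median of all measured genes by -0.128 in log2. Zfc3h1, Mtrex and Exosc3 were past 1.5-fold in the same directions under each scaling tried.

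The ratio went with gene length across the whole table. Spearman's rho between exon length and log2 ratio was -0.45 over the 12264 measured genes, which are not independent replicates, and -0.71 over the 10 members, which share the same libraries. In the bin of measured genes with 1031 to 1853 bases of exon, which holds Exosc3, the median log2 ratio was 0.40. In the bin with 7145 to 9472 bases, which holds Zfc3h1 and Dis3, it was -0.38. The shorter members thus tended to be higher in the treated library and the longer ones lower, as did genes at large. Zfc3h1 has an exon length of 7848 bases. Among the 1154 measured genes with 7000 to 9000 bases, 6 had a lower log2 ratio than Zfc3h1 at -2.10, and 90% of them lay between -1.37 and 0.51. Dis3, with 7754 bases, stood at -0.23, above the median of -0.35 of these genes.

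**Figure D2:**
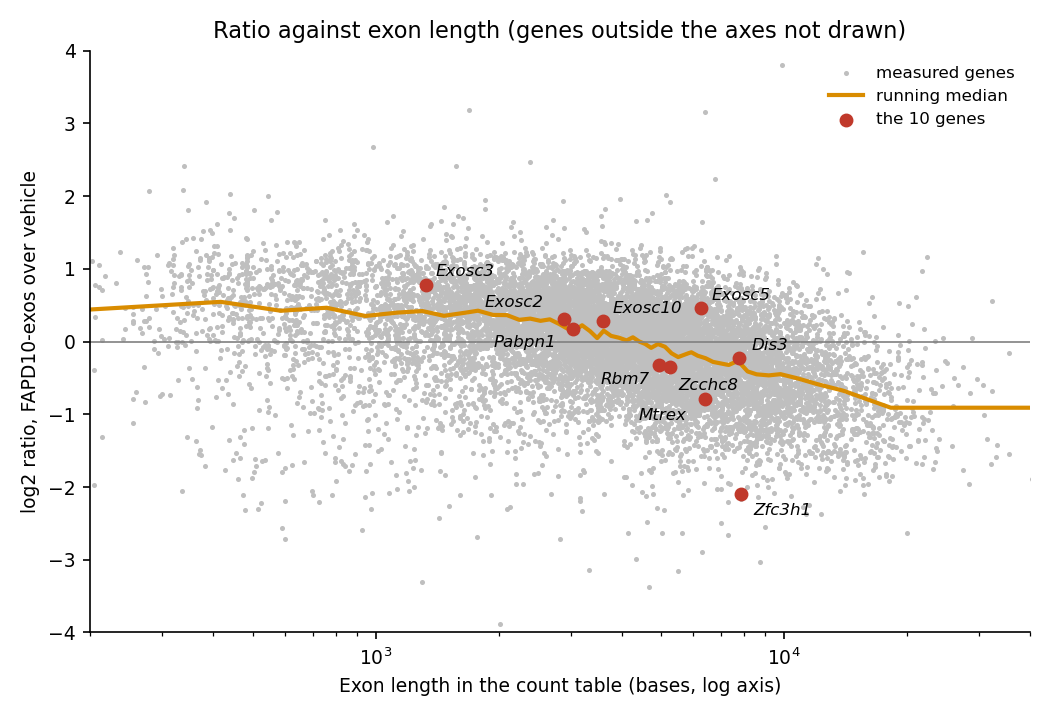
Log2 ratio of the treated over the vehicle library (vertical) against exon length in bases (log axis) for measured genes (grey), their running median (orange) and the 10 genes (red). The median runs downward with length, and Zfc3h1 at -2.10 lies below all but 6 of the 1154 genes with 7000 to 9000 bases, while Dis3 at -0.23 lies near the line.

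After the running median over exon length was subtracted, Zfc3h1 stood at -1.78 in log2 and Mtrex at -0.56, the latter no longer 1.5-fold lower. Exosc3 moved from 0.78 to 0.37 and was no longer 1.5-fold higher. Exosc5, whose exons sum to 6268 bases, moved from 0.46 to 0.67 and passed 1.5-fold. With principal transcript lengths from GENCODE M21 in place of the summed exons, an alternative chosen after the data were seen, Zfc3h1 stood at -1.42, Mtrex at -0.60 and Exosc3 at 0.32. Rbm7 then stood at -0.63, so that Mtrex and Rbm7 were both 1.5-fold lower, and Exosc5 stood at 0.10. By exon-length-corrected values 12.2% of measured genes passed 1.5-fold upwards and 16.4% downwards, and by transcript-length-corrected values 10.7% and 14.6% of 11864. Zfc3h1 was the only member past 1.5-fold under both corrections and without one. The sign of Dis3 turned to positive under both corrections, and Pabpn1 and Exosc2 turned to negative under the transcript-length correction, at -0.29 and -0.04. The part of transcript length or RNA quality in the difference of Zfc3h1 was not tested beyond these corrections.

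**Figure D3:**
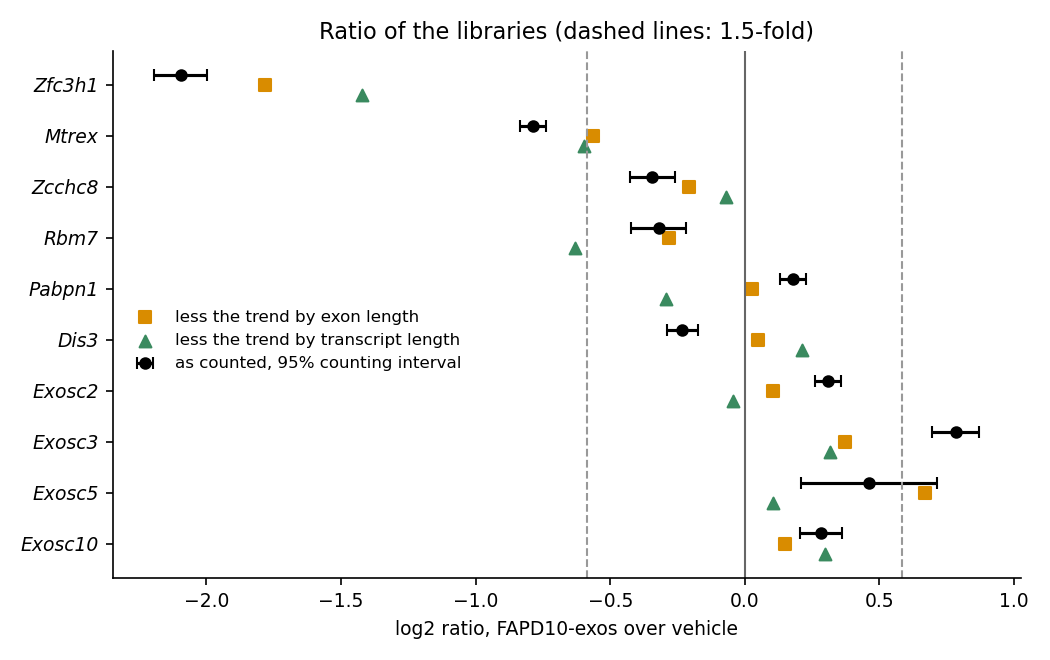
Log2 ratio of the treated over the vehicle library for each of the 10 genes, as counted with its 95% counting interval (black), and less the trend by exon length (orange squares) or by principal transcript length (green triangles). Zfc3h1 lies left of the dashed 1.5-fold line in each of the 3 versions (-2.10, -1.78 and -1.42), whereas Mtrex, Rbm7, Exosc3 and Exosc5 cross a line between versions.

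Levels of different genes are compared per kilobase of exon length in CPM. In the vehicle library the order from the top was Exosc2 at 60.0, Pabpn1 at 57.5, Mtrex at 42.0, Exosc3 at 33.5, Exosc10 at 18.6, Dis3 at 18.1, Zfc3h1 at 16.2, Zcchc8 at 13.7, Rbm7 at 9.82 and Exosc5 at 0.971. The counting intervals of Exosc2 (58.6 to 61.5) and Pabpn1 (56.1 to 58.9) overlapped, as did those of Exosc10 and Dis3. The remaining neighbours in this order were further apart than their counting error. In the treated library Exosc2 stood at 74.4, Pabpn1 at 65.1, Exosc3 at 57.6 and Mtrex at 24.3, followed by Exosc10 at 22.6, Dis3 at 15.4, Zcchc8 at 10.8, Rbm7 at 7.87, Zfc3h1 at 3.79 and Exosc5 at 1.34. By this summed exon length Zfc3h1 went from above both NEXT subunits to below them, and Exosc3 and Mtrex changed places. Per kilobase, the level of Zfc3h1 was 0.386 of that of Mtrex in the vehicle and 0.156 in the treated library. Against Zcchc8 it was 1.18 in the vehicle and 0.350 in the treated library. Pabpn1 went the other way, from 1.37 to 2.67 of the level of Mtrex.

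The exon length in the table sums all annotated exons, which understates genes with many unused exons. For Rbm7 it is 4941 bases against 1773 in the principal transcript, and for Exosc5 6268 against 1680. Per kilobase of principal transcript, Pabpn1 stood first in both libraries, at 192 treated and 169 vehicle. Zfc3h1 then stood at 18.3 in the vehicle library, below Rbm7 and Dis3 at 27.4 and 27.3. Of the NEXT subunits, it was then below Rbm7 in both libraries and changed places with Zcchc8 alone (16.6 vehicle, 13.1 treated). In the treated library it stood at 4.28 (4.02 to 4.54), and its counting interval overlapped that of Exosc5 at 4.98 (4.43 to 5.58).

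**Figure D4:**
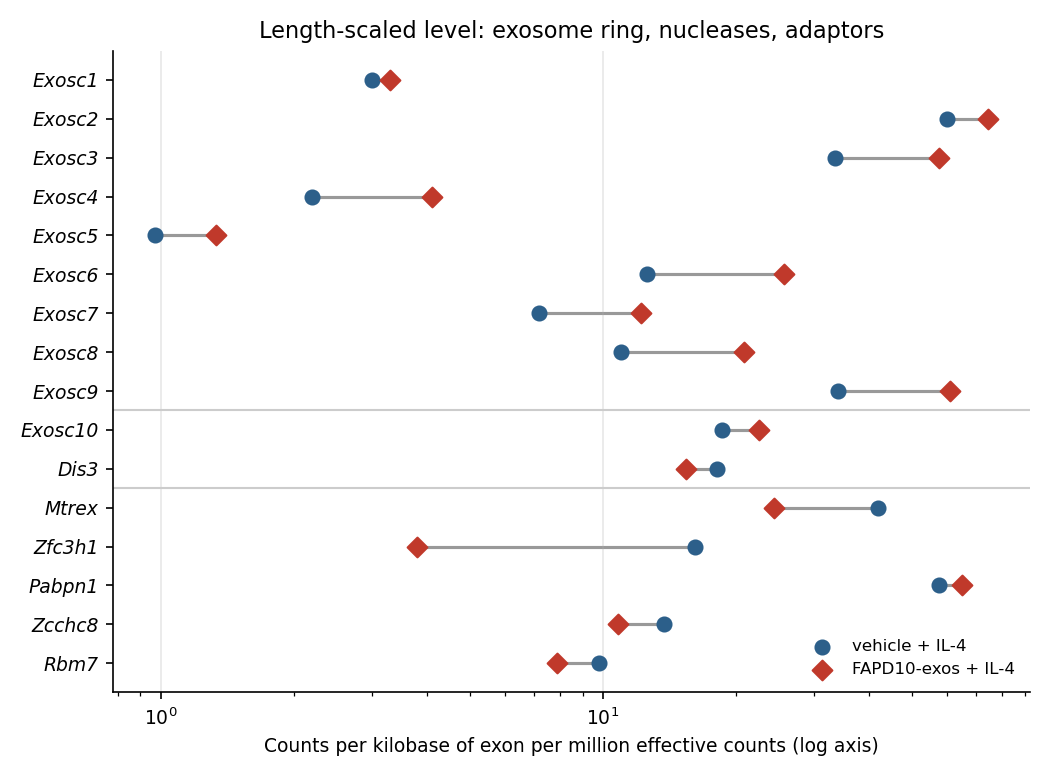
CPM per kilobase of exon (log axis) in the vehicle (blue circles) and treated (red diamonds) library for the 9 barrel genes (top), the nucleases Exosc10 and Dis3 (middle) and the adaptors (bottom). All barrel genes have the treated library to the right, and 4 of the 5 adaptor genes, all but Pabpn1, have it to the left.

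The rest of the exosome and its partners were read from 12 lists of 112 symbols, of which 109 were in the table and 107 were measured. All 9 genes of the barrel were measured. The median log2 ratio of the 9 was 0.78 beside 0.01 over all measured genes. Past 1.5-fold upwards were 6 (66.7%), downwards 0, and 3 lay between, beside 17.1% upwards and 19.8% downwards over all measured genes. Besides Exosc3, the 6 higher barrel genes were Exosc8 at 1.89 (1.79 to 2.01), Exosc4 at 1.86 (1.53 to 2.27), Exosc9 at 1.79 (1.73 to 1.85), Exosc7 at 1.70 (1.60 to 1.81) and Exosc6 at 2.05 (1.86 to 2.26). Exosc6 is uncertain because all of its exon length lies in exons of Aars. Exosc4, with 284 against 162 counts, is uncertain because 19.8% of its exon length lies in exons of Oplah. Among the other barrel genes the largest overlaps were those of Exosc2, 12.4% in Gm13427, and Exosc9, 10.8% in Ccna2. Exosc1, the remaining cap subunit, had a ratio of 1.10 with an interval that held 1 (0.965 to 1.25). After exon-length correction 5 of the 9 (55.6%) passed 1.5-fold upwards, beside 12.2% of all measured genes. The median of the 9 was then 0.62, and the 9 log2 values were all above 0. Under the transcript-length correction 2 of the 9 (22.2%) passed 1.5-fold upwards, beside 10.7% of all measured genes with a known length. These were Exosc4 at 0.60 and Exosc6 at 0.62, both uncertain. The median of the 9 was 0.32, with Exosc1 at -0.34 and Exosc2 at -0.04. The 6 nucleases and nuclear cofactors all lay within 1.5-fold, among them Nop53, a nucleolar factor that brings MTR4 to pre-ribosomes, at 1.38 (1.36 to 1.41), and C1d, a partner of Exosc10, at 1.39 (1.28 to 1.52).

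The wider PAXT list adds 3 genes that are no members. Of these, 1 was past 1.5-fold downwards and 0 upwards, beside 19.8% and 17.1% of all measured genes. The lower gene was Rbm27, which encodes an RNA-binding protein linked to PAXT. It had 3766 against 8638 counts, a 2.16-fold lower level in the treated library (2.08 to 2.24). Its paralog Rbm26 had a ratio of 0.716 (0.680 to 0.754), and Zc3h3, a zinc-finger protein of the same group, 0.770 (0.649 to 0.912). After correction Rbm27 stood at -0.84 by exon length and at -0.60 by transcript length, still 1.5-fold lower. Of the 4 TRAMP genes, which add short oligo(A) tails to nuclear RNA, 1 (25%) was lower, Mtrex itself, beside the same 19.8%. Tent4b, the TRAMP poly(A) polymerase, had a ratio of 0.697 (0.643 to 0.755), and Zcchc7, its zinc-knuckle partner, 1.04 (0.988 to 1.09). The 5 genes of the cap-binding complex and its partner ARS2, which link NEXT and PAXT to capped RNA, all lay within 1.5-fold, with Srrt, the ARS2 gene, at 1.002 (0.990 to 1.01).

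Among genes that add or remove poly(A) tails, 4 of 15 (26.7%) passed 1.5-fold downwards and 0 upwards, beside 19.8% and 17.1% of all measured genes. Papolg, a nuclear poly(A) polymerase, had 214 against 867 counts and was 3.81-fold lower (3.28 to 4.45). Papolg stood at -1.72 after exon-length correction, near Zfc3h1 at -1.78. Under the transcript-length correction it stood at -1.70, below Zfc3h1 at -1.42. Cnot1, the scaffold of the CCR4-NOT deadenylase, was 2.80-fold lower. It stood at -0.63 after exon-length correction and at -0.66 under the transcript-length correction. Of 12 other exonuclease and decapping genes 7 (58.3%) were lower and 0 were higher. The lower ones were led by Dcp2, the decapping enzyme, at 2.38-fold, and Patl1, a decapping activator, at 2.36-fold. The nuclear exonuclease gene Xrn2, which degrades RNA from its 5′ end, was 1.65-fold lower (1.60 to 1.70). After exon-length correction 4 of these 12 (33.3%) and 2 of the 15 (13.3%) were still lower, beside 16.4% of all measured genes. Under the transcript-length correction 3 (25%) and 2 (13.3%) were lower, beside 14.6%. Dcp2 at -0.40 and Xrn2 at -0.55 were then no longer among them, and Edc3, at 0.69, was 1.5-fold higher.

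In the list for termination of short transcripts, 4 of 16 were lower and 1 higher. Zc3h4, which restricts extragenic transcription, was 3.07-fold lower (2.94 to 3.20), from 2658 against 8657 counts, and stood at -1.15 after exon-length correction. Its partner Wdr82 went the other way, at a ratio of 1.64 (1.498 to 1.79). After exon-length correction the balance turned round, with 4 of the 16 higher, 1 lower and a median of 0.27. Zc3h4 was the 1 lower gene, while Ints1, Ints2 and Ints7 stood at -0.14, -0.21 and -0.40. Under the transcript-length correction 2 were higher and 1 lower, again Zc3h4, at -1.11. Of 14 mRNA export genes 3 were higher and 2 lower, with Thoc2, the scaffold of the THO complex, 2.90-fold lower (2.78 to 3.02), and Alyref, an export adaptor, 1.71-fold higher (1.66 to 1.76). Of 6 measured partners of the cytoplasmic exosome 1 was lower, the scaffold gene Skic3 at 1.96-fold (1.80 to 2.15), and 0 were higher. Skic3 stood at -0.40 after exon-length correction, which left 0 of the 6 lower. Over all 107 measured genes of the lists, 18 (16.8%) were higher and 21 (19.6%) lower, shares near the 17.1% and 19.8% of all measured genes. After exon-length correction 18 (16.8%) were higher and 10 (9.35%) lower, beside 12.2% and 16.4%, and under the transcript-length correction 9 (8.82%) and 12 (11.8%) of 102, beside 10.7% and 14.6%.

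Transcripts that host small nucleolar RNAs are known substrates of nuclear exosome adaptors. Of 14 measured host transcripts 8 (57.1%) passed 1.5-fold upwards in the treated library and 0 downwards, beside 17.1% and 19.8% of all measured genes. Whether these values relate to the adaptors was not tested. The median log2 ratio of the host transcripts was 0.70. After exon-length correction it was 0.57, with 7 (50%) past the threshold upwards, beside 12.2% of all measured genes. Under the transcript-length correction Snhg8, at 0.72, was the 1 of 12 host transcripts with a known length that passed it. That is 8.33%, beside 10.7% of all measured genes with a known length, and the median of the 12 was 0.32. Snhg8, with 1088 against 478 counts, stood at 2.42 (2.17 to 2.70). Snhg15, with 1607 against 830, stood at 2.06 (1.89 to 2.24). Both overlap the small RNAs they host, so reads of spliced host and small RNA cannot be told apart. Gas5, the most counted of the list, had a ratio of 1.20 (1.17 to 1.24) and stood at -0.26 under the transcript-length correction, as Snhg15 stood at 0.52.

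**Figure D5:**
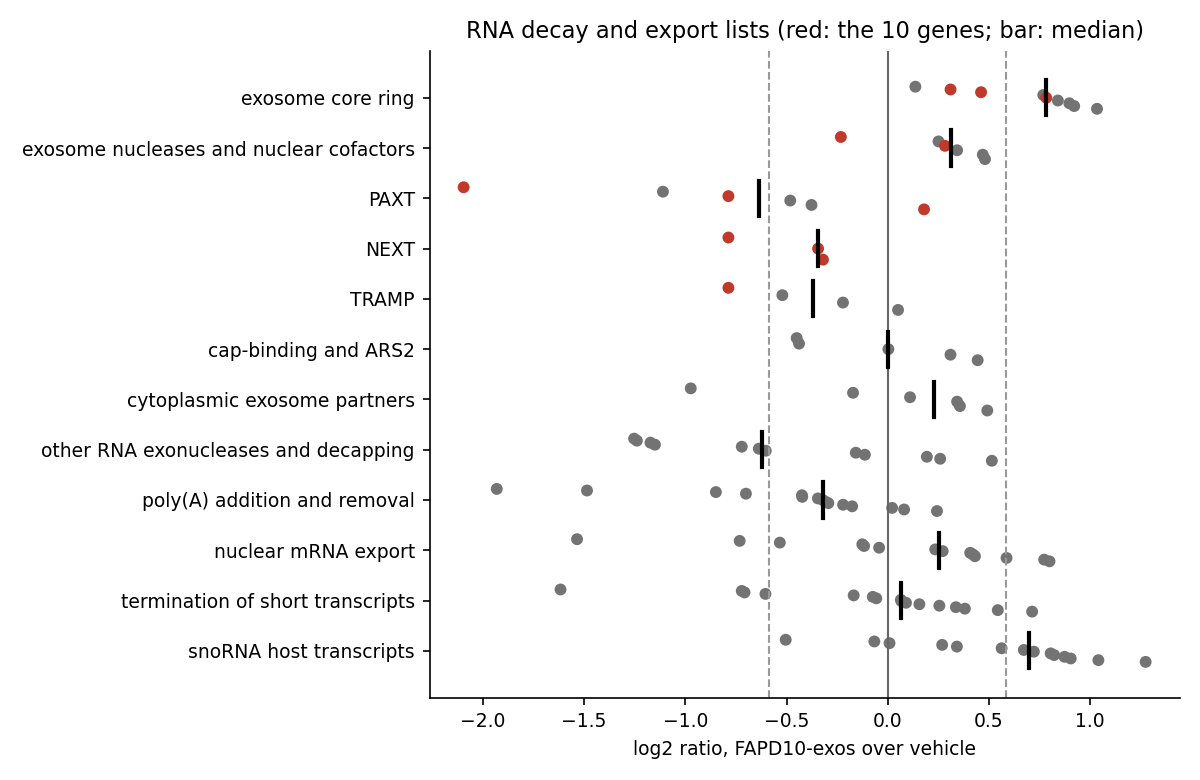
Log2 ratio of the treated over the vehicle library for each measured gene of the 12 lists, with the 10 genes in red, the list median as a black bar and 1.5-fold as dashed lines. The barrel genes lie above 0 with a median of 0.78, and Zfc3h1 at -2.10 is the lowest point, followed by Papolg at -1.93.

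By position, the count table places Zfc3h1 on the plus strand of chromosome 10, from 115220864 to 115268677, with 35 separate exon blocks, none of which overlapped exons of another gene. Mtrex lies on chromosome 13 from 113003952 to 113063932 on the minus strand, and 7.06% of its exon length overlaps Plpp1. Exosc3 lies on chromosome 4 from 45316613 to 45342732 on the minus strand, with 4.003% of its exon length in Dcaf10. Exosc2 lies on chromosome 2, Exosc10 on 4, Zcchc8 on 5, Exosc5 on 7, Rbm7 on 9, and Pabpn1 and Dis3 on 14. These are protein-coding genes counted over exons, and the mouse build of these positions is not stated in the labels or the header, so they are not to be mixed with the GRCm38.p6 promoter positions above.

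Members that share a promoter region with a gene on the opposite strand were compared with that neighbour, named after its values were seen. Thap2 starts 516 bases from Zfc3h1 and runs the other way. Thap2 had 165 treated and 168 vehicle counts, which gives a ratio of 1.04 (0.836 to 1.301), whereas Zfc3h1 stood at 0.234 (0.219 to 0.250). Dhx29, a helicase gene whose start lies 56 bases from that of Mtrex, had 1834 against 3047 counts, a ratio of 0.639 (0.603 to 0.678) beside 0.579 (0.561 to 0.599) for Mtrex. Bckdha, which starts 183 bases from Exosc5, had 216 against 109 counts, a ratio of 2.10 (1.66 to 2.67). Gm5617, which starts 143 bases from Rbm7, had 16 against 24 counts and was not measured, with a ratio of 0.708 whose interval held 1 (0.351 to 1.39). The neighbours of Mtrex and Exosc5 thus lay on the same side of 1 as the member, and the neighbour of Zfc3h1 was not lower.

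The 5 protein-coding genes with at least 1000 counts whose log2 ratio was nearest to that of Zfc3h1, by absolute difference over the 2 libraries, were Zfhx4 at -2.09, Prr14l at -2.12, Ankrd12 at -2.06, 9930111J21Rik2 at -2.02 and Luzp1 at -1.999. All have exon lengths of 7017 bases or more. After exon-length correction they stood between -1.72 and -1.31, above Zfc3h1 at -1.78. Under the transcript-length correction 9930111J21Rik2 stood at -1.51, below Zfc3h1 at -1.42, and the others between -1.28 and -1.11.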

How the data were processed

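RNA was measured in 2 libraries of RAW264.7 cells, 1 per group. Per the labels' protocols, total RNA was extracted with TRIzol. The authors deposited 1 table of whole-number counts per gene symbol for both libraries, in the featureCounts layout per the file headers, not normalised. The submitters' processing notes list STAR 2.5.3a, fastp 0.23.4 and featureCounts, with GRCh38 as build, which is human although the symbols are mouse. The mouse build, strand setting and handling of shared reads are not stated in the labels or the header. Columns were matched to samples by the labels' descriptions.

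Effective library sizes came from TMM (edgeR 4.0.16, R 4.3.3). One library per group leaves no residual degrees of freedom, so no p-value was computed. Ratios carry exact Clopper-Pearson intervals (95%) of the treated share of both counts, and levels per kilobase exact Poisson intervals. The length correction subtracted running medians over 50 bins. Alternatives were total-count, median-of-ratios (DESeq2 1.42.0) and upper-quartile scaling, no filter, 10 CPM, 2-fold, halved counts, protein-coding genes and 1 CPM added. List members were named by size, up to 3 per direction with at least 100 counts, and others, such as Gas5, Srrt, Rbm26 and Xrn2, to describe a complex or after their values were seen. The members and lists were chosen with earlier results of these data known. Scripts (Python 3.11.15, numpy 2.4.6, pandas 2.3.3, scipy 1.17.1, matplotlib 3.10.9) were tested on simulated data.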

Additional observations from a re-analysis of the deposited data

How the results depend on the processing

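Zfc3h1 stayed below 1 under each alternative run. Its log2 ratio of -2.10 was -2.22 under scaling by total counts, -1.78 after correction by exon length and -1.42 after correction by principal transcript length, and between -2.14 and -2.03 under the other scalings and with 1 CPM added. At the 2-fold threshold 0 members were higher and 1 lower, of the list genes 3 were higher and 10 lower, and of measured genes 514 were higher and 1059 lower. With a filter at 10 CPM, which tests fewer genes, 1162 measured genes were higher and 1372 lower. After correction by exon length 1 of 10 members (10%) and 10 of 107 list genes (9.35%) were lower, beside 16.4% of measured genes. After correction by principal transcript length 0 of 10 members, 9 of 102 list genes (8.82%) and 1270 of 11864 measured genes (10.7%) were higher. By the same correction 3 of 10 members (Zfc3h1, Mtrex and Rbm7) and 12 of 102 list genes (11.8%) were lower, beside 14.6% of measured genes. Of 60 alternative values of single members, 30 left the member's counting interval and 0 changed the direction of a member past 1.5-fold. Exosc5 had the fewest counts of the members, 298 and 230. No paired analysis was possible because each group has 1 library, and no replicate could be left out.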
